A study of Rattus norvegicus with 10 samples.

Results

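Toll-like receptor signalling was described here through 10 listed rat genes: the receptors Tlr2, Tlr3, Tlr4, Tlr7 and Tlr9, the co-receptors Cd14 and Ly96, the adaptor Myd88, the kinase Irak1 and the inhibitor Tollip. A gene was included through the array probe that carries its RefSeq mRNA accession. Among the 15323 mRNA probes (24684 probes in all), 9 of the 10 genes had exactly 1 probe each. No probe matched Tlr9, which was not analysed here. All 9 probes gave a value on every array and were well above background on 10 of 10 arrays.

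The samples were total RNA of the spinal cord (the lumbar enlargement, per the methods) of adult male Sprague-Dawley rats weighing 240 to 260 g, with 1 one-colour array per rat. The 5 rats of the morphine tolerance group (MT, rats 1 to 5) received 10 μg of morphine in 10 μl by intrathecal injection, that is, into the fluid around the cord, 2 times a day for 7 days. The 5 rats of the normal saline group (NS, rats 6 to 10) received 10 μl of saline on the same schedule. Both groups were therefore injected intrathecally, and cord from rats without injections was not analysed here. Per the methods, the rats were injected again on the morning after these 7 days and anaesthetised for tissue collection 1 hour later. Effects of that last injection and of the earlier ones cannot be told apart here.

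Toll-like receptors recognise microbial molecules and products of damaged cells. Tlr4, the receptor for bacterial lipopolysaccharide, sits at the cell surface in a complex with Ly96 (also called MD-2), and Cd14 hands lipopolysaccharide to that complex. Tlr2 is a surface receptor for lipopeptides, while Tlr3 and Tlr7 detect double-stranded and single-stranded RNA inside endosomes. Myd88 and Irak1 carry the signal of most of these receptors towards NF-κB, whereas Tlr3 signals through the adaptor Ticam1. In the spinal cord these receptors are best known from microglia, the resident macrophages, and Tlr4 has been studied as a possible partner of opioids in glial activation.

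To show the genes themselves, the sequence before each start site was searched for GAGGAA, the core that the myeloid transcription factor PU.1 binds, on both strands. Promoter sequence came from RefSeq (build GRCr8), in which 9 of the 10 genes had an entry and Ly96 had none. Of these 9 genes, 5 held the core within the 250 bases before the start, namely Tlr3, Tlr4, Tlr7, Tlr9 and Cd14, and 23.3% of all 33469 promoters in the table did. The windows of the 4 measured genes are printed because they include both Tlr4 and Cd14, the genes on which the results below turn. They are written on the strand of the gene, with the core or its complement (TTCCTC) in capitals.
Tlr4, chr5:85161168-85161197, plus strand: atgaaagccagcTTCCTCttgctgTTCCTC
Cd14, chr18:28611281-28611310, minus strand: tagggttgttagGAGGAAgagaagtgggga
Cd14, chr18:28611246-28611275, minus strand: gttgagttcacaGAGGAAgggacagggtga
Tlr3, chr16:53554886-53554915, plus strand: gcttacagccagccagccacgggTTCCTCt
Tlr7, chrX:30644262-30644291, plus strand: tgatagaaataaGAGGAAcctggtgtttct
Tlr4 and Cd14 each held 2 copies of the core, and Tlr3 and Tlr7 held 1 each. The NF-κB motif, present in 3.54% of promoters, was found in Tlr2 alone among these genes, as overlapping matches on both strands. The AP-1 motif TGANTCA (6.34% of promoters) was found in Tlr9 and Myd88. A match describes the letters in this window and not a site in use.

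Array quality differed between scan sessions. Arrays that share a scan time in their headers are called a scan group here: scan group 1 held MT rats 1, 3, 4 and 5, scan group 2 held MT rat 2 with NS rats 6, 7 and 10, and scan group 3, scanned on another day, held NS rats 8 and 9. Between 81.1% and 83.9% of the spots of an MT array were well above background, against 77.4% to 79.6% in the NS rats of scan group 2 and 58.6% and 63.8% in scan group 3. Only scan group 2 held both treatments, so its within-group value is given beside the results for the 9 genes and for the pathway and marker genes named as meeting the criteria. One tissue check stood out: Hoxa11, a Hox gene of the lumbar cord, read 4.41 in MT rat 3 and at least 8.09 in every other rat on the log2 scale, and Hoxd10 was also lowest in MT rat 3 (10.27).

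Levels below are quantile-normalized log2 intensities, and a difference is MT minus NS on that scale, so that 1 unit is a 2-fold change. Levels of different genes were not compared, since each probe has its own brightness. The criteria of the study were taken as more than a 1.5-fold linear change together with a raw P under 0.05, here from limma, a linear model with moderated variances. Of 20284 RNAs tested, 555 (2.74%) met them, 353 (1.74%) higher and 202 (0.996%) lower in MT rats. After Benjamini-Hochberg adjustment over all RNAs, 40 (0.197%) had an adjusted p below 0.05.

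Of the 9 genes, Cd14 met the criteria, with a higher level in MT rats, and no other gene did. No gene of the 9 reached an adjusted p of 0.05 in limma, and 2 (Cd14 and Tlr2) had an unadjusted P below 0.05, a level that 16.4% of all RNAs reached. The median difference of the 9 genes was −0.17, against −0.0013 over all RNAs, and 6 of the 9 differences were below 0, as were 50.2% of all RNAs. Without scan group 3 the median of the 9 genes was −0.0018 and 5 were below 0, and within scan group 2 the median was −0.11 and 6 were below 0.

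**Figure D1:**
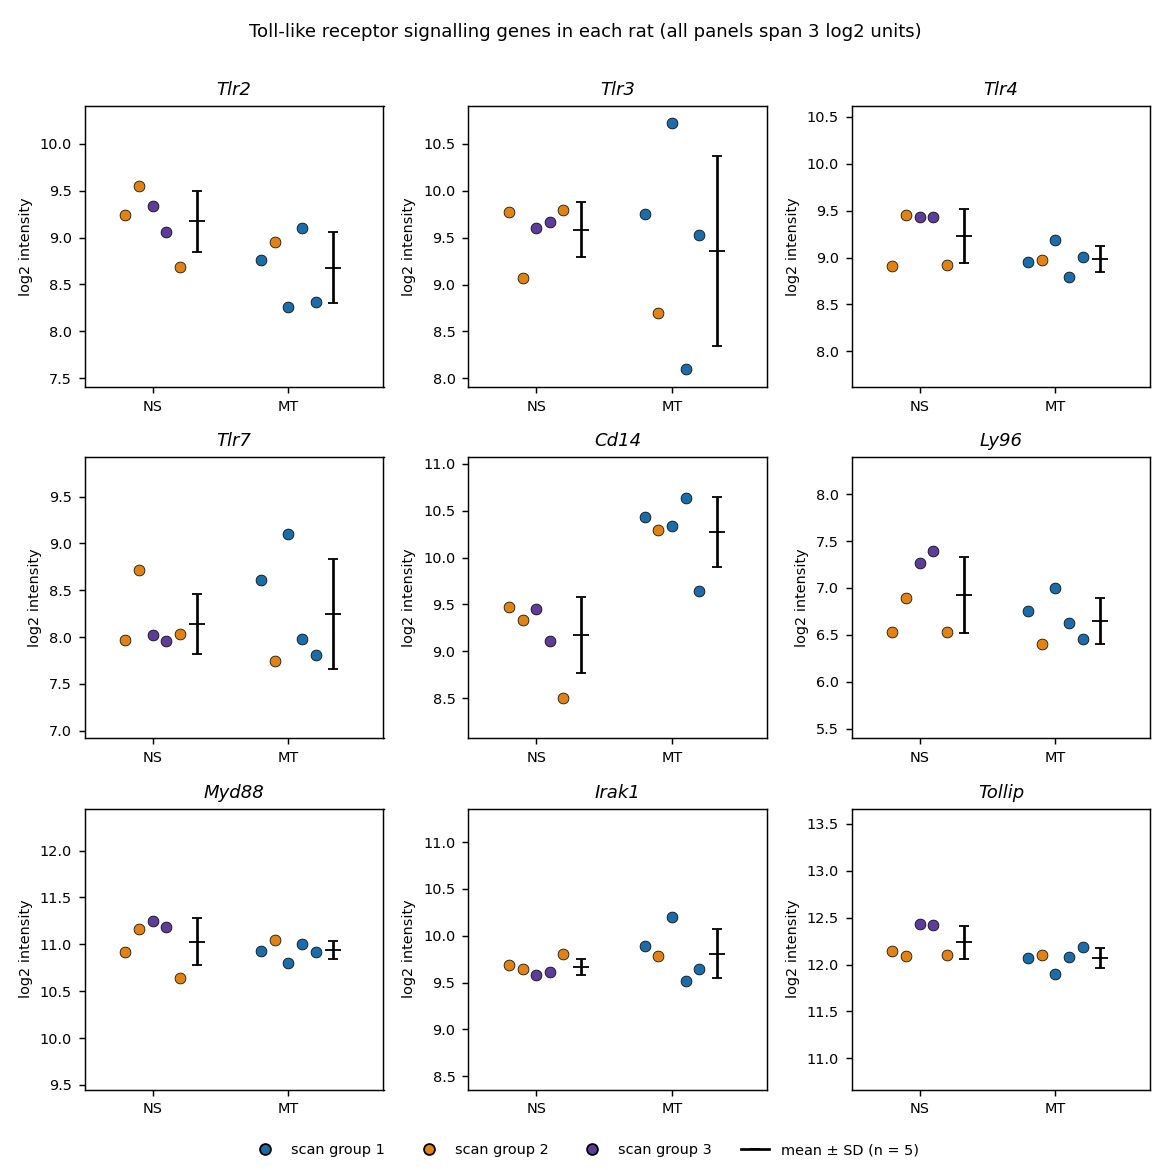
Quantile-normalized log2 intensity of each of the 9 measured genes (vertical axis, 3 log2 units in every panel) in NS and MT rats. Each point is a rat, coloured by scan group, and the bar is the mean ± SD of 5 rats. The MT points of Cd14 lie between 9.64 and 10.64 and the NS points between 8.50 and 9.47, whereas the groups overlap in the other 8 panels.

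Cd14, the co-receptor that delivers lipopolysaccharide to Tlr4, had log2 intensities of 10.44, 10.30, 10.33, 10.64 and 9.64 in MT rats 1 to 5. In NS rats 6 to 10 the values were 9.47, 9.33, 9.45, 9.11 and 8.50. Every MT rat was above every NS rat, with MT rat 5 and NS rat 10 the lowest of their groups, a separation in this direction that 2.35% of all RNAs showed. The means were 10.27 ± 0.37 in MT rats and 9.17 ± 0.40 in NS rats (SD, n = 5 each). The difference was 1.10 (standard error 0.23, 95% interval 0.59 to 1.60), which is 2.14-fold, with an adjusted p of 0.0899 in limma. The exact two-sided permutation test over 252 assignments gave p = 0.00794, the smallest it can give with 5 and 5 rats.

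The Cd14 difference was 1.19 within scan group 2, where the MT side is rat 2 alone, and 1.17 without scan group 3. Scan group 1 held 4 MT rats and no NS rat, so scan group and treatment cannot be told apart for those rats. Leaving out each rat in turn gave 0.93 to 1.25, the lowest value without NS rat 10, and Cd14 met the study's criteria each time. Its adjusted p ranged from 0.0473 with normexp background correction to 1.00 with the scan group as a fixed block. The block took its difference from 4 arrays, and no RNA in the whole table passed an adjusted p of 0.05 under it.

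**Figure D2:**
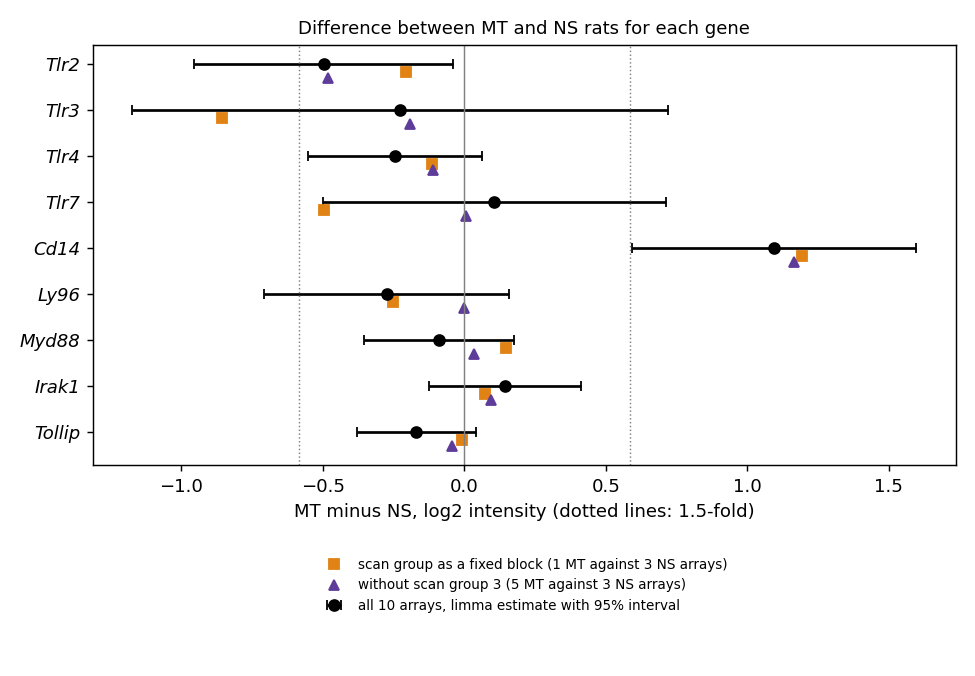
MT minus NS difference in log2 intensity (horizontal axis) for each gene. Black points with bars are the limma estimates with 95% intervals over all 10 arrays, squares are the estimates with the scan group as a fixed block, triangles are those without scan group 3, and dotted lines mark a 1.5-fold change. The interval of Cd14 starts at 0.59, and that of Tlr2 ends at −0.04.

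Tlr4 itself had values of 8.95, 8.98, 9.18, 8.79 and 9.00 in MT rats and 8.90, 9.45, 9.43, 9.44 and 8.92 in NS rats. The MT rats formed a narrow band, and the NS rats fell into 3 higher values (rats 7, 8 and 9) and 2 values within the MT band (rats 6 and 10). The means were 8.98 ± 0.14 and 9.23 ± 0.29 (SD, n = 5 each), a difference of −0.25 (standard error 0.14, 95% interval −0.55 to 0.06; limma adjusted p = 0.402). Tlr4 therefore did not pass the test, and its interval covers falls of up to 0.55 as well as a small rise. The difference was −0.11 both within scan group 2 and without scan group 3.

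Ly96, which binds lipopolysaccharide for Tlr4, had values of 6.75, 6.40, 7.00, 6.63 and 6.46 in MT rats and 6.53, 6.89, 7.27, 7.39 and 6.53 in NS rats. The 2 highest values belonged to NS rats 8 and 9, both of scan group 3. The means were 6.65 ± 0.24 and 6.92 ± 0.40, and the difference of −0.27 (standard error 0.19) had a limma adjusted p of 0.504. Without scan group 3 the difference was −0.0018, and within scan group 2, with MT rat 2 alone on the MT side, it was −0.25. Among the saline rats, those of scan group 3 read 0.68 above those of scan group 2.

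Tlr2, the receptor for bacterial lipopeptides, had values of 8.76, 8.95, 8.26, 9.10 and 8.31 in MT rats and 9.24, 9.55, 9.33, 9.06 and 8.69 in NS rats. The 3 highest values were those of NS rats 6, 7 and 8, and the 2 lowest were those of MT rats 3 and 5. The groups overlapped through NS rats 9 and 10 and MT rats 1, 2 and 4. The means were 8.68 ± 0.38 and 9.18 ± 0.32, with a difference of −0.50 (standard error 0.21, 95% interval −0.95 to −0.04; limma adjusted p = 0.277; exact permutation p = 0.0714). The fold of 1.41 fell short of the criteria. Without MT rat 4 the difference was −0.60 and without NS rat 10 it was −0.62, and in both cases Tlr2 met the criteria as lower. Within scan group 2 the difference was −0.21.

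The endosomal receptors varied most among the MT rats. Tlr3 had values of 9.76, 8.69, 10.72, 8.09 and 9.52 in MT rats and 9.77, 9.07, 9.61, 9.67 and 9.80 in NS rats. Its MT values therefore spanned 8.09 to 10.72, on both sides of all NS values, with MT rat 3 highest and MT rat 4 lowest. The means were 9.36 ± 1.01 and 9.58 ± 0.30, and the difference of −0.23 (standard error 0.42) did not pass the test (limma adjusted p = 0.812). It was 0.09 without MT rat 4, and −0.86 within scan group 2, where the MT side is rat 2 alone.

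Tlr7 had values of 8.61, 7.74, 9.10, 7.97 and 7.81 in MT rats and 7.97, 8.71, 8.02, 7.96 and 8.03 in NS rats. The values of MT rats 1 and 3 and of NS rat 7 stood above 8.6, and the other 7 rats lay close together. The difference was 0.11 (standard error 0.27, 95% interval −0.50 to 0.71; limma adjusted p = 0.868). It was −0.11 without MT rat 3 and −0.49 within scan group 2, so Tlr7 had no stable direction.

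The differences of the downstream genes Myd88, Irak1 and Tollip lay between −0.17 and 0.14. Myd88, the adaptor shared by most of these receptors, had values of 10.93, 11.05, 10.80, 11.00 and 10.91 in MT rats and 10.91, 11.16, 11.25, 11.18 and 10.64 in NS rats. The MT values lay inside the NS range. The difference was −0.09 (standard error 0.12, 95% interval −0.35 to 0.17; limma adjusted p = 0.729), and it was 0.04 without scan group 3 and 0.15 within scan group 2.

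Irak1, the kinase recruited by Myd88, had values of 9.89, 9.79, 10.20, 9.52 and 9.65 in MT rats and 9.69, 9.64, 9.58, 9.61 and 9.81 in NS rats. MT rat 3 was the highest and MT rat 4 the lowest, the same order of these 2 rats as for Tlr3. The difference was 0.14 (standard error 0.12, 95% interval −0.13 to 0.41; limma adjusted p = 0.576), and 0.07 within scan group 2.

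Tollip, which binds Irak1 and restrains signalling, had values of 12.07, 12.10, 11.90, 12.08 and 12.19 in MT rats and 12.14, 12.09, 12.43, 12.42 and 12.10 in NS rats. The 2 values above 12.4 were those of scan group 3, and the other 8 rats lay between 11.90 and 12.19. The difference of −0.17 (standard error 0.09, 95% interval −0.38 to 0.04; limma adjusted p = 0.401) was −0.04 without scan group 3 and −0.01 within scan group 2. Tollip is the gene that the study linked, by target prediction, to the microRNA miR-219b, whose mature sequence in RefSeq is shown with its seed (bases 2 to 8) in capitals.
miR-219b: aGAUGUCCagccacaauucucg
MicroRNA levels were not analysed here, and no target site was searched for in Tollip.

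The ratio of Cd14 to each other gene in the same rat was computed after the values of Cd14 had been seen, and is given as a description with no test. Relative to Tlr4, Cd14 was 1.34 higher in MT than in NS rats on the log2 scale, with 1.31 within scan group 2. Relative to Tlr2 the shift was 1.59, the largest of the 8, and relative to Irak1 it was 0.95, the smallest. The MT and NS ratios did not overlap for Tlr2, Tlr4, Ly96, Myd88, Irak1 and Tollip, and they overlapped for Tlr3 and Tlr7. All 8 ratios share the Cd14 values, whose groups did not overlap on their own. The separations therefore repeat the Cd14 result and add no separate evidence.

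**Figure D3:**
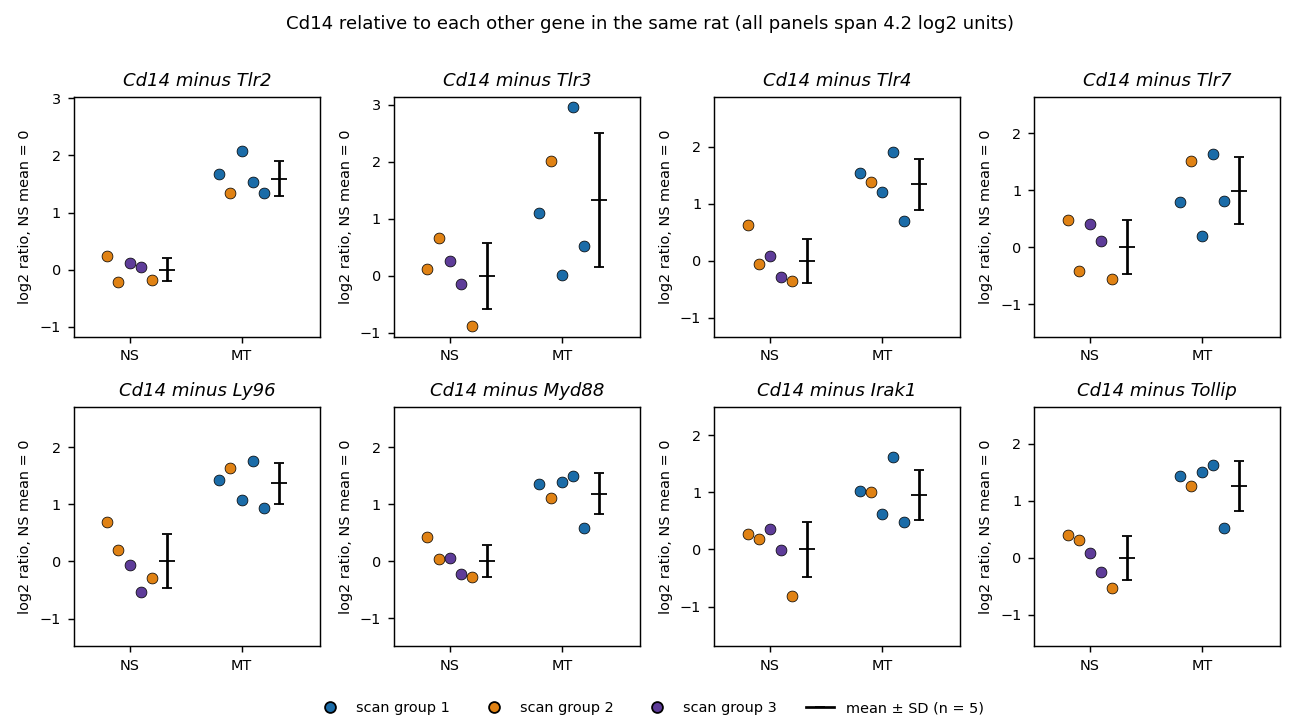
Log2 ratio of Cd14 to each of the 8 other genes in the same rat (vertical axis, set so that the NS mean is 0; 4.2 log2 units in every panel). Points are rats coloured by scan group and bars are mean ± SD of 5 rats. The MT rats lie above the NS rats in 6 panels and overlap them in the panels of Tlr3 and Tlr7. All panels share the Cd14 values, so they are not separate results.

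Among themselves, the 9 genes did not move as 1 block across rats. The following Pearson correlations are descriptions over 10 arrays that share scan groups and normalization, and carry no test. Tlr4 and Ly96, the 2 parts of the lipopolysaccharide receptor, had the highest r of the 36 pairs (0.83), and 0.76 after each scan group's mean was subtracted. Tlr3 and Irak1 followed with r = 0.69, and Tlr2 and Myd88 had r = 0.68. Cd14 had no r above 0.26 with any other member over the 10 arrays, and its r with Tlr4 was −0.36. After each scan group's mean was subtracted, its r was 0.63 with Myd88, 0.44 with Tlr2 and −0.08 with Tlr4. Several correlations changed on subtraction: that of Ly96 with Tollip went from 0.55 to −0.75, and that of Ly96 with Tlr7 from 0.32 to 0.96. Scan group 1 held only MT rats and scan group 3 only NS rats, so subtraction also removes differences between treatments. Scan group and treatment cannot be told apart in these changes.

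Over the 12456 mRNAs with a symbol and a value on every array, those most like Tlr4 by r over the 10 arrays were Ncr1 (0.950), Mis18a (0.949), Zfp358 (0.945), Lgsn (0.944) and Synpr (0.942). After each scan group's mean was subtracted, they were F3 (0.990), Synpr (0.974), Lman1 (0.968), Slc39a11 (0.965) and Hddc2 (0.962). Synpr alone was in both sets. These values are the extremes of a search over all these mRNAs and are given as a ranking, with no test. Of the microglial markers, Cx3cr1, the fractalkine receptor, had the highest r with Tlr4 over the 10 arrays (0.89, rank 42), and C1qc, a complement subunit, had the highest after subtraction (0.88, rank 70).

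**Figure D4:**
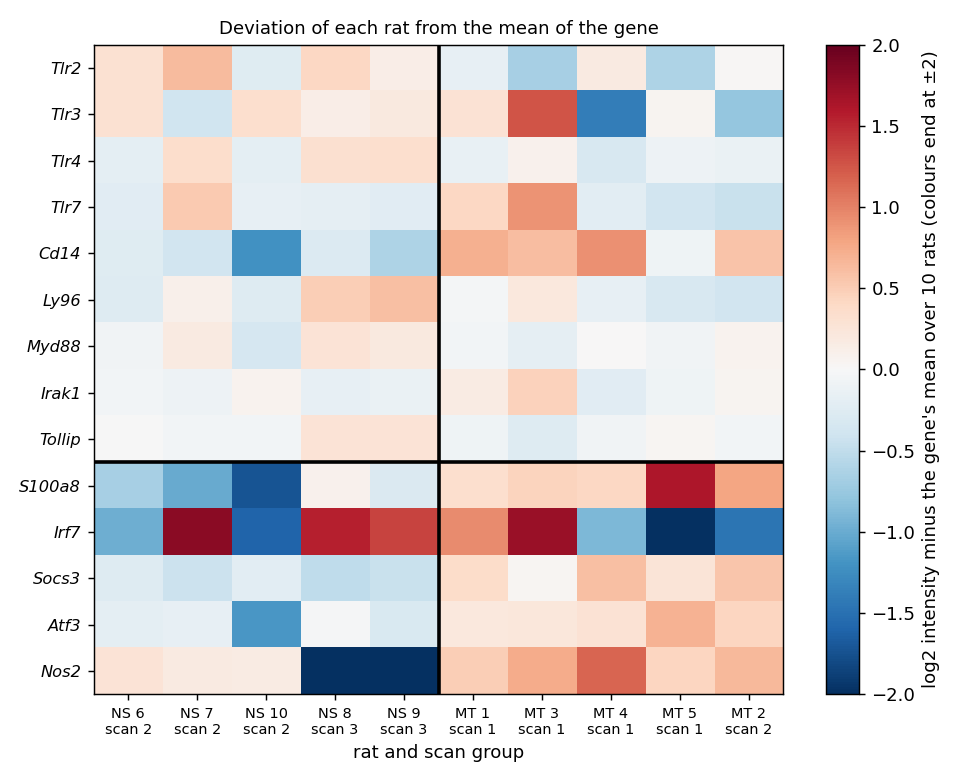
Log2 intensity of each gene in each rat minus the mean of the gene over the 10 rats (colour scale, ending at ±2), with NS rats left and MT rats right of the vertical line and rats ordered by scan group. The 9 described genes are above the horizontal line, and below it are S100a8, Socs3, Atf3 and Nos2, which met the study's criteria, and Irf7, added after its values were seen. Cd14 is below its mean in every NS rat, Ly96 and Tollip are highest in the rats of scan group 3, and Irf7 is high in MT rats 1 and 3 and NS rats 7, 8 and 9.

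The wider pathway was followed through 6 lists with 87 further genes, of which 66 were tested through 67 RNAs. Of the 67 RNAs, 4 (5.97%) met the study's criteria, all higher in MT rats, against 2.74% of all RNAs. Their median difference was 0.03, and 5 were higher and 8 lower at an unadjusted P below 0.05. One, Socs3, had an adjusted p below 0.05.

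Among ligands released by cells of the body, all 6 tested had a positive difference, with a median of 0.16. Of all RNAs, 50.2% had a negative difference. S100a8, a calcium-binding protein of neutrophils and monocytes that activates Tlr4, met the criteria and is also on the neutrophil list below. Its values were 6.19, 6.64, 6.28, 6.25 and 7.46 in MT rats and 5.18, 4.83, 5.92, 5.55 and 4.12 in NS rats, so all MT rats were above all NS rats. The difference was 1.44 (standard error 0.35; limma adjusted p = 0.121), and 1.93 within scan group 2. Camp (0.56, limma adjusted p = 0.290) fell short of the fold criterion. It met the criteria with scaling by the 75th percentile, with array weights, without scan group 3 and without NS rat 7, 9 or 10.

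None of the 4 other receptors tested, Tlr5, Tlr6, Tlr10 and Tlr12, had an unadjusted P below 0.05, and their median difference was −0.09. Without scan group 3, Tlr12 met the criteria as higher (0.95) and Tlr5 as lower (−0.91). Both also did so with array weights and without NS rat 9, and Tlr12 with scaling by the 75th percentile and without MT rat 2. Within scan group 2, Tlr12 was −0.04 and Tlr5 was −0.79. Tlr5 was dim and well above background on only 6 of 10 arrays. Of 7 further co-receptors and trafficking proteins, none met the criteria, 6 had a negative difference, and the median was −0.13. A negative difference was found in 50.2% of all RNAs. Cd36 (0.64) met the criteria as higher without scan group 3 (0.98), with scaling by the 75th percentile (0.89) and with array weights (0.78). It also did so without NS rat 8 (0.80) and without NS rat 9 (0.73). Ly86 (−0.57) met them as lower without MT rat 3 (−0.80) and without NS rat 10 (−0.71). Of the 21 adaptors, kinases and transcription factors, none met the criteria in either direction, and 14 had a negative difference (median −0.07). Without scan group 3, 10 had a negative difference and the median was 0.01. At an unadjusted P below 0.05, 6 of them were lower in MT rats, a direction and level that 9.53% of all RNAs reached. The smallest P belonged to Rela, the p65 subunit of NF-κB, with a difference of −0.27 (limma adjusted p = 0.138) and −0.17 within scan group 2, named after its values were seen.

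Of the 12 RNAs of 11 inhibitors, 2 met the criteria, Socs3 and Atf3, both higher in MT rats, against 1.74% of all RNAs. The list had a median of 0.01. Socs3, which is induced by cytokines and restrains cytokine and Toll-like receptor signals, had a higher level in MT rats. Its values were 6.62, 6.81, 6.29, 6.85 and 6.50 in MT rats and 5.99, 5.81, 5.74, 5.81 and 6.04 in NS rats, with no overlap. The difference was 0.74 (standard error 0.12; limma adjusted p = 0.0467), and 0.86 within scan group 2. With normexp background correction it was 0.36, short of the fold criterion. In 8 of 23 alternatives with a test the adjusted p was below 0.05. The adjusted p was 0.0567 with normexp background correction, 0.0992 with scaling by the 75th percentile, 0.164 without scan group 3 and 0.578 with the scan group as a fixed block, and it was 0.0326 to 0.184 on leaving out each rat. Atf3, a stress-induced repressor of inflammatory genes, had values of 9.99, 10.20, 10.00, 10.07 and 10.47 in MT rats and 9.58, 9.61, 9.76, 9.46 and 8.61 in NS rats. Its difference of 0.74 (standard error 0.21; limma adjusted p = 0.151) was 0.93 within scan group 2 and 0.54 without NS rat 10, short of the fold criterion.

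Of the 17 tested genes that Toll-like receptor stimulation induces in myeloid cells, 15 had a positive difference, and the median was 0.47. A negative difference was found in 50.2% of all RNAs. The figures of the list rested on NS rat 10, without which 9 of 17 differences were positive and the median was 0.02. Only Nos2, the inducible nitric oxide synthase, met the criteria. It had values of 3.83, 3.98, 4.08, 4.49 and 3.77 in MT rats and 3.60, 3.52, 1.35, 1.25 and 3.49 in NS rats. The 2 lowest values were those of scan group 3, where Nos2 was not well above background. Its difference of 1.39 (standard error 0.51; limma adjusted p = 0.233) was 0.49 without scan group 3 and 0.44 within scan group 2. The chemokine and cytokine genes of the list spread widely among NS rats. The mean log2 intensity of the list ranged from 7.61 to 8.56 in MT rats and from 6.35 to 8.35 in NS rats, lowest in NS rat 10, and the groups overlapped.

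**Figure D5:**
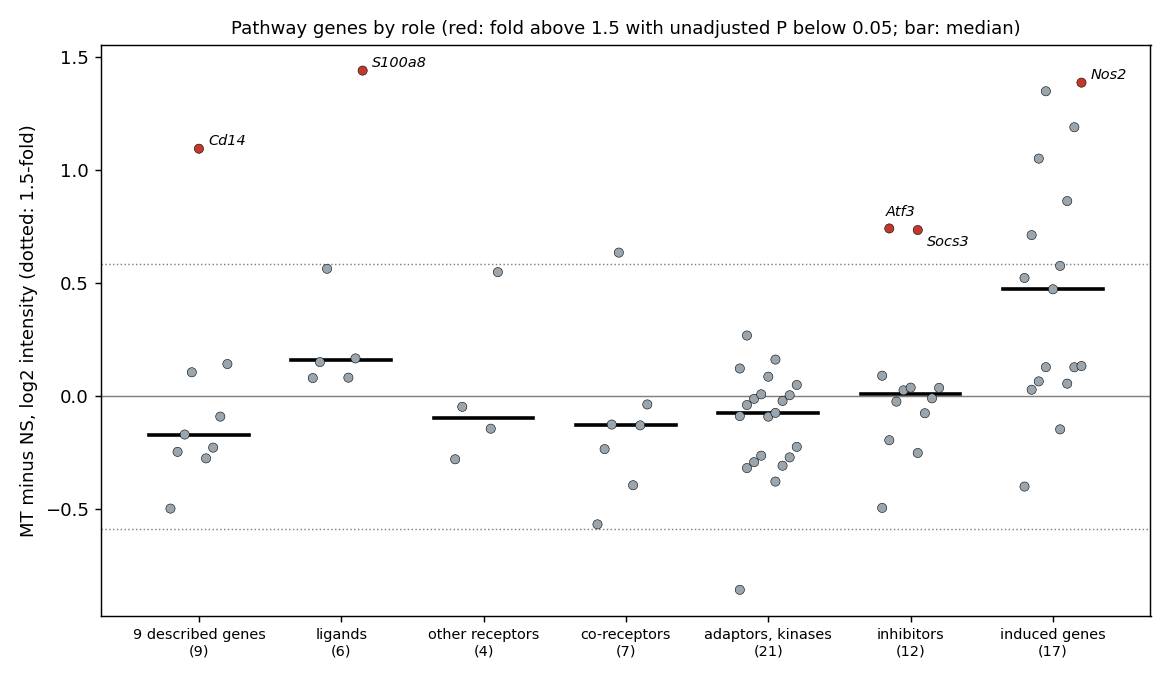
MT minus NS difference in log2 intensity (vertical axis) of the 9 described genes and of the 67 RNAs of the 6 pathway lists, with the number of RNAs under each list. Red points met the study's criteria, black bars are medians and dotted lines mark a 1.5-fold change. Red points are Cd14, S100a8, Atf3, Socs3 and Nos2, all above 0, and the medians lie between −0.17 and 0.47, the latter being 0.02 without NS rat 10.

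Markers of cells that carry these receptors also differed between the groups. In bulk tissue, fewer cells of a type and less RNA per cell cannot be told apart. All 16 tested microglial markers had a negative difference, as did 50.2% of all RNAs, and the median of the list was −0.36. Of the 16, 3 met the criteria as lower, against 0.996% of all RNAs. These were Tmem119, a microglial membrane protein (−1.24, limma adjusted p = 0.0555), Trem2, a microglial lipid receptor (−0.72, adjusted p = 0.0634), and Gpr34, a lysophospholipid receptor (−0.63, adjusted p = 0.0414). Gpr34, named after its values were seen, was the only one of the list past an adjusted p of 0.05. Within scan group 2 the differences were −1.31, −0.62 and −0.53, and the median of the list was −0.27 without scan group 3. The summed intensity of the microglial list ranged from 168627 to 220245 in MT rats and from 204211 to 304670 in NS rats. Of the receptors and co-receptors, Tlr2 (−0.50), Tlr3 (−0.23), Tlr4 (−0.25) and Ly96 (−0.27) had differences of the same sign as these markers. Tlr7 (0.11) and Cd14 (1.10) had the opposite sign. None of these genes reached an adjusted p of 0.05 in limma, and Ly96 was −0.0018 without scan group 3. The part of microglial content in these differences was not tested.

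Of 8 neutrophil markers tested, 3 were higher by the criteria, against 1.74% of all RNAs, and none lower. The list had a median of 0.64. That median lay between the dim genes Cxcr2 (0.64) and Ngp (0.63), which passed the filter mainly through MT rats. Cxcr2 was well above background on 5 MT and 2 NS arrays, and Ngp on 4 MT and 1 NS arrays. Lcn2 differed the other way (−0.24), and within scan group 2 the signs were 5 positive and 3 negative. Mmp9, a matrix protease (2.83-fold higher, limma adjusted p = 0.209; log2 difference 2.38 within scan group 2), and S100a8 (2.71-fold) had the largest folds. Csf3r, named after its values were seen, also met the criteria (log2 difference 0.91, limma adjusted p = 0.0637; 1.04 within scan group 2). The summed intensity of the list overlapped, from 3477 to 5383 in MT rats and from 2995 to 6027 in NS rats, and 3 listed markers with a probe did not pass the filter on dim probes. The mean log2 intensity of the list, which includes Cxcr2 and Ngp, ran from 6.49 to 7.14 in MT rats and from 5.96 to 6.34 in NS rats.

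Of 7 monocyte and border macrophage markers, 2 were higher by the criteria, against 1.74% of all RNAs. These were Lyz2, which encodes lysozyme (0.77, limma adjusted p = 0.106), and Mrc1, a mannose receptor of border macrophages (0.63, limma adjusted p = 0.0972). Within scan group 2 these differences were 0.58 and 0.69. Of the 7 markers, 4 had a negative difference, and the list had a median of −0.05. Its mean log2 intensity overlapped, from 10.25 to 10.71 in MT rats and from 10.20 to 10.66 in NS rats. Its summed intensity, in which the bright probe of Lyz2 weighs most, was 66576 to 104867 in MT rats and 49966 to 77639 in NS rats. Of 4 B cell markers, 2 were lower by the criteria, against 0.996% of all RNAs. The summed intensity of the list was 134 to 269 in MT rats and 185 to 369 in NS rats. The 2 lower markers were Cd22 (−1.05, limma adjusted p = 0.158) and Cd79b (−0.89, limma adjusted p = 0.259). Within scan group 2 these differences were −1.30 and −0.99, and without scan group 3 they were −0.81 and −0.38. Cd79b was dim and well above background on only 5 of 10 arrays, and Pax5 of the same list differed the other way (0.23). Cd14 is carried by monocytes, macrophages and neutrophils as well as microglia, and the part of these cells in its difference was not tested. No marker of endothelial cells, astrocytes, oligodendrocytes or neurons, no Hox gene and no housekeeping gene of the lists met the criteria.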

How the data were processed

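RNA of 5 MT and 5 NS rats was hybridized to a one-colour rat lncRNA array. Spots were extracted by the authors with Agilent Feature Extraction 11.0.1.1, and each deposited array file holds an intensity per spot, corrected for background, with quality flags. The authors also deposited a table of log2 intensities, quantile normalized in GeneSpring, which matched these values at r of 0.993 to 0.999 per array. Depth is not defined for arrays, and their number limits the precision. The array design names build rn4, and no probe coordinates were used.

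From the intensities, values were floored at 1, converted to log2 and quantile normalized over 42136 spots in R 4.3.3, using limma 3.58.1 and data.table (version 1.17.8). Spots marked as outliers were dropped, and spots of a probe and probes of an RNA were averaged. RNAs with more than 50% of spots well above background on at least 5 arrays were kept (20286, of which 20284 could be tested). RefSeq accessions gave symbols for 14274 of 15323 mRNA probes.

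MT and NS were compared by limma over all RNAs with Benjamini-Hochberg adjustment, and single values by exact two-sided permutation. P-values measure the spread between these rats, each with 1 array, so differences between arrays and scan groups are part of that spread. Arrays sharing a scan time were taken as 1 scan group. The fit was tested on simulated data. Figures used matplotlib 3.10.9 in Python 3.11.15.

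The genes and lists were chosen with earlier results of these data known. Named were all members, each pathway gene past the adjusted threshold and up to 4 past the criteria per list, the 5 mRNAs most like Tlr4 by either measure, and the 2 markers of largest fold in the microglial, neutrophil, macrophage and B cell lists. The other marker lists are given by counts. Scanner files held no mean spot signal, so the normexp alternative used the median signal, a change made after seeing the data.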

Additional observations from a re-analysis of the deposited data

Results flagged for a closer look

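In all, 3 values stood apart from the other 4 rats of their group by Dixon's test, among 26 groups of 5 checked, and chance gives about 1 in 20. Tlr3 in NS rat 7 was 9.07, with the other NS rats between 9.61 and 9.80. Tlr7 in the same rat was 8.71, with the others between 7.96 and 8.03. Atf3 in NS rat 10 was 8.61, with the others between 9.46 and 9.76.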

How the results depend on the processing

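No paired analysis was possible because the MT and NS rats share no rat number. Cd14 stayed higher in MT rats and met the study's criteria in every alternative with a test, with differences of 0.93 to 1.25, and passed an adjusted p of 0.05 only with normexp, where the count of Toll-like receptor genes past that threshold was 1 in place of 0. The count of these genes that met the criteria was 1 to 2 on leaving out each rat, with 2 (Cd14 and Tlr2) without MT rat 4 or NS rat 10.

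Signs were not stable for 3 genes. Myd88 changed to 0.011 with array weights, 0.15 with the scan group as a fixed block and within scan group 2, 0.0046 as a random block and 0.035 without scan group 3. Tlr7 changed to −0.49 with the fixed block and within scan group 2, −0.17 with the random block and −0.11 without MT rat 3, and ranged from −0.11 to 0.25 on leaving out each rat. Tlr3 ranged from −0.57 to 0.089 on leaving out each rat, with the positive value without MT rat 4, and was −0.86 with the fixed block and −0.54 with the random block.

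Of the 67 pathway RNAs, 4 met the criteria, against 7 with scaling by the 75th percentile, 2 with normexp, 8 with array weights, 7 without scan group 3, and 4 to 9 on leaving out each rat, highest without NS rat 6. Of all RNAs, 40 passed an adjusted p of 0.05, against 143 with normexp, 66 in the deposited table, 12 with no filter, 120 with a filter on all 10 arrays, 117 with a variance trend, 224 with array weights, 0 with either block (limma; 839 and 1421 had an unadjusted P below 0.05), 2 without scan group 3, and 0 to 84 on leaving out each rat, with 0 without MT rat 1 or NS rat 9. The criteria were met by 555, against 201 with normexp, 912 with no filter, 349 with the filter on all 10 arrays, 337 and 328 with the fixed and random block, and 426 to 867 on leaving out each rat, highest without NS rat 10. The higher share of these was 63.6%, against 86.3% with scaling by the 75th percentile, 45.9% with no filter, 48.4% and 50.3% with the blocks and 52.8% without scan group 3. The causes were not tested. Counts and medians of the lists without each rat or scan group were added after seeing the data. Signal over background limits dim genes such as Nos2.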
